A study of Homo sapiens with 30 samples.

Results

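The CALR knockout was 1 of 8 HEK28 lines in which a single gene had been targeted with CRISPR, and its 3 libraries were compared with the 21 libraries of the other 7 knockouts. HEK28 is a line derived from HEK293, a human embryonic kidney line, which makes factor VIII, the protein encoded by F8, for export. The other 7 lines carried knockouts of ATG7, CANX, GABARAP, GABARAPL1, GABARAPL2, LMAN1 or MCFD2, with 3 libraries each. Every line in the comparison therefore shared the HEK28 background and had 1 gene targeted, and no unedited line served as the reference. The whole series holds 30 samples, and the 6 libraries of HEK28 itself and of the parental HEK line took no part in the comparison. The cells received no treatment and were grown in six-well plates to about 70% confluency, per the labels. The labels do not say whether a line is 1 clone, nor whether the 3 libraries of a line came from separate cultures, so what the p-values weigh is the variation among these libraries, and that may be technical.

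Calreticulin, the product of CALR, is a soluble lectin chaperone of the endoplasmic reticulum. With its membrane-bound relative calnexin (CANX) it holds newly made glycoproteins that carry a single glucose on their glycans, while the disulfide isomerase PDIA3 works on the bound protein, and UGGT1 adds the glucose back to proteins that are not yet folded. It also binds much of the calcium stored in that compartment and belongs to the complex that loads peptides onto MHC class I. Factor VIII is a large glycoprotein that binds both lectin chaperones in the cell and leaves the compartment on the receptor formed by LMAN1 and MCFD2.

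Messenger RNA was read near its 3′ end, and a level below is the log2 of a gene's reads, plus 0.5, per length and per library size. The scale lets 1 gene be compared between libraries, and levels of different genes are not comparable on it. The CALR knockout libraries held 733199, 1406180 and 3363776 reads in genes, and the 24 knockout libraries ran from 281741 to 4470579. A filter on low reads, worth 10 reads at the median depth in 3 of the 24 libraries, let in 161 genes only with the CALR libraries counted, 19 of them called. Of the 11542 genes tested with limma, 750 (6.5%) passed an adjusted p of 0.05 between the CALR knockout and the mean of the other 7 knockouts. Of these 355 (3.08%) were higher and 395 (3.42%) were lower, and 221 differed by 2-fold or more. The balance depended on the scaling, with 487 higher and 347 lower after centring each library on its median.

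These tests set the CALR line against the spread between libraries of a line. The same contrast drawn for each of the other lines called from 112 genes (GABARAPL1 knockout) to 1088 genes (GABARAPL2 knockout), so a number such as 750 was not particular to the CALR knockout. When each line counted as 1 value and the CALR line was set against the spread of the other 7, limma called 0 genes. Of 11542 genes 512 had an unadjusted p under 0.05, no more than that threshold would pass with no difference at all. Without CALR knockout replicate 1, 2 or 3 the count was 257, 245 and 365. With all 30 libraries in the fit it was 333.

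**Figure D1:**
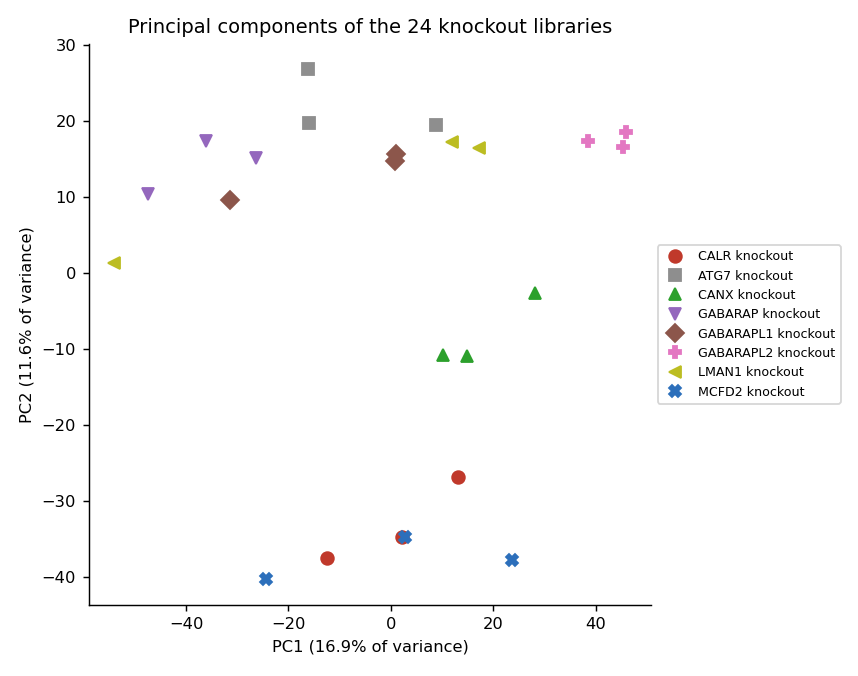
Each point is 1 of the 24 knockout libraries, placed by its first and second principal components (16.9% and 11.6% of the variance of the log2 levels of 11542 genes). On the second component the CALR and the MCFD2 knockout libraries lie together at the low end.

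The CALR libraries lay closest to those of the MCFD2 knockout. On the second principal component they stood at -34.72, -37.47 and -26.91, the MCFD2 libraries at -37.76, -34.81 and -40.32, and the lowest of the remaining 18 libraries at -10.93. LMAN1 knockout replicate 2 stood apart from its line on the first component, at -53.99. Against single lines the number of genes called was smallest for the MCFD2 knockout, at 235 (2.04%), followed by CANX with 347 (3.01%) and GABARAPL1 with 543 (4.7%). The LMAN1 and ATG7 knockouts gave 795 (6.89%) and 796 (6.9%), and the GABARAP and GABARAPL2 knockouts 1086 (9.41%) and 1123 (9.73%). These 7 comparisons share the CALR libraries. In 19 genes (0.165%) the CALR knockout was called in the same direction against every other line. The 6 higher ones (0.052%) were HSPA5, CDKN1A, MALAT1, SPEN, SULT1A1 and YPEL3, and the 13 lower ones (0.113%) included CALR, ASNS and RUVBL1. They also included, on chromosomes 19 and 20, CPNE1, DDX49, EIF3K, FKBP1A, HSPBP1, MYBL2, PSMA7, SNRPB and SNX5. All 3 CALR libraries lay above the other 21 in 107 genes (0.927%) and below them in 65 (0.563%).

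Transcripts of the targeted gene itself were lower in the CALR knockout than in any other library. CALR (ENSG00000179218, chromosome 19, 12938578 to 12944489, GRCh38, plus strand) stood at 3.48, 4.11 and 4.18 in the CALR knockout, against a lowest value of 5.60, a median of 6.43 and a highest value of 6.87 in the other 21 libraries. The groups did not overlap. The mean was 3.92 ± 0.39 (SD, n = 3) in the CALR knockout and 6.42 ± 0.27 over the other 7 lines (SD of 7 line means), a log2 difference of -2.49 (SE 0.18, adjusted p = 1.08e-07), or 5.63-fold lower. The difference was called against each line and ran from -2.73 against the GABARAPL1 knockout to -2.08 against the ATG7 knockout. CALR transcripts remained, with 140 reads in the 3 CALR libraries and 3647 in the other 21. In bulk RNA, fewer cells with a transcript and less of it per cell cannot be told apart. The 24 tested genes around CALR (12675717 to 13930879) were low as well, with a median difference of -0.62, 6 called lower and none higher, and a lowest value of -1.03. After centring each chromosome in each library the CALR difference was -2.16 (adjusted p = 1.5e-06), and with lines as the unit of replication it was -2.49 with an adjusted p of 0.0657.

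F8 (ENSG00000185010, chromosome X, 154835788 to 155026940, minus strand) was higher in the CALR knockout than in any other knockout library. It measured 9.76, 9.93 and 9.73 in the CALR libraries, against a lowest value of 8.75, a median of 9.12 and a highest value of 9.61 (MCFD2 knockout replicate 2) in the other 21. The difference was 0.69 (SE 0.08, 1.61-fold, adjusted p = 5.27e-05) and came from 9328 reads in the CALR knockout and 27993 in the others. By line it was 1.00 against GABARAPL2, 0.96 against ATG7, 0.78 against LMAN1, 0.66 against CANX, 0.62 against GABARAP and 0.47 against MCFD2, all called (highest adjusted p = 0.0323). It was 0.35 against the GABARAPL1 knockout, which did not pass (adjusted p = 0.0771). With lines as the unit of replication the adjusted p was 0.999. The table gives the messenger RNA alone, not the protein that leaves the cell. The coordinates are those of the gene, and the table does not show whether the reads came from it or from an introduced copy.

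Of the other targeted genes, CANX, LMAN1 and GABARAPL1 were called higher in the CALR knockout, but the reference then holds the line in which that gene was targeted. Calnexin transcripts stood at 10.23, 10.27 and 10.20 in the CALR knockout, against a lowest value of 8.59 (in the CANX knockout), a median of 9.66 and a highest value of 9.94. Without the CANX line the CANX difference was 0.51 (adjusted p = 0.00378) in place of 0.67 (adjusted p = 0.000188). For LMAN1, the cargo receptor for factor VIII, the difference of 0.74 (adjusted p = 0.00478) became 0.27 without the LMAN1 line and was no longer called (adjusted p = 0.213). It also missed the threshold without CALR knockout replicate 2 (adjusted p = 0.0506). GABARAPL1, an ATG8-family gene, was higher by 1.13 (adjusted p = 0.00424) and by 0.97 without its own line (adjusted p = 0.0158). MCFD2, the partner of LMAN1, measured 0.43 above the others and did not pass (adjusted p = 0.0574), though it did with median centring (adjusted p = 0.0183), and GABARAP, GABARAPL2 and ATG7 differed by 0.20, 0.23 and -0.34 (lowest adjusted p = 0.64).

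Among genes for glycoprotein folding, those called higher encode lectin chaperones and the isomerase PDIA3. Of 13 tested members of the calnexin and calreticulin cycle, 3 were called higher (CANX, PDIA3 and CLGN) and 1 lower (CALR). Over all genes tested 3.08% were higher and 3.42% lower. The median difference was 0.10 in the list and 0.02 over all genes tested. PDIA3, the disulfide isomerase that both lectins bind, measured 6.51, 6.55 and 6.52 in the CALR knockout, against 5.14 to 6.17 with a median of 5.97 in the other 21 libraries. The groups did not overlap, and the difference was 0.71 (SE 0.11, adjusted p = 0.000417), called against 6 of 7 lines. CLGN, the calmegin gene, a relative of calnexin known from testis, differed by 1.39 (SE 0.37, adjusted p = 0.029) on 231 and 393 reads. The CLGN call was lost without any 1 of the CALR libraries, without the GABARAPL1 line and with quantile normalisation. Genes of glucose trimming and re-addition did not pass, nor did the isomerase gene P4HB: UGGT1 differed by 0.10, GANAB by 0.25, MOGS by -0.28 and P4HB by -0.18. None of 11 tested subunits of the oligosaccharyltransferase, which attaches the glycans, was called in either direction, which is near those shares over all genes.

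The unfolded protein response raises chaperone genes when unfolded protein builds up in the endoplasmic reticulum, and part of that control runs through a promoter element bound by ATF6 with NF-Y, the ER stress response element. The promoters of the called chaperone genes that hold this element, and of CALR, are shown because these genes share it. Each line gives 250 bases before the RefSeq start (GRCh38.p14), 5′ to 3′ on the gene's strand, with the element in capitals.
CALR, chr19:12938359-12938608, plus strand: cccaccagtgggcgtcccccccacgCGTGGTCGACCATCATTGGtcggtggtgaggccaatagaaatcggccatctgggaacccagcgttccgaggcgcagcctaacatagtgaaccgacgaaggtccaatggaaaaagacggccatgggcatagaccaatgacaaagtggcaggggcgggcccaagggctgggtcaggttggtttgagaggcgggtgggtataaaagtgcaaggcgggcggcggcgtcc
HSPA5, chr9:125241344-125241593, minus strand: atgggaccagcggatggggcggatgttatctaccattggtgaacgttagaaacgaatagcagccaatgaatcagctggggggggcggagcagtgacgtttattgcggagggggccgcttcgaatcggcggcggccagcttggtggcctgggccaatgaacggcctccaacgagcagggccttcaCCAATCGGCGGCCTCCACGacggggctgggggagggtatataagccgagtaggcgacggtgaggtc
HSP90B1, chr12:103930160-103930409, plus strand: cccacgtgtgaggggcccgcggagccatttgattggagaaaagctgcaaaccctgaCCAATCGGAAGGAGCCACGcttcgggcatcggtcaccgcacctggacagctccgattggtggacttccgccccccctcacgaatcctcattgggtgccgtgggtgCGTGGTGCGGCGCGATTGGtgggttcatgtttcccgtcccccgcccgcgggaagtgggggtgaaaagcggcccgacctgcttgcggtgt
CANX, chr5:179698679-179698928, plus strand: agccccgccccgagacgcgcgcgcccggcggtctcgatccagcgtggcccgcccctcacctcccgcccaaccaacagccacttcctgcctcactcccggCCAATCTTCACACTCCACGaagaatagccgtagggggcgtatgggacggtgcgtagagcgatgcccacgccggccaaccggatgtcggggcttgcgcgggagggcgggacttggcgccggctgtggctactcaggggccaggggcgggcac
CRELD2, chr22:49918384-49918633, plus strand: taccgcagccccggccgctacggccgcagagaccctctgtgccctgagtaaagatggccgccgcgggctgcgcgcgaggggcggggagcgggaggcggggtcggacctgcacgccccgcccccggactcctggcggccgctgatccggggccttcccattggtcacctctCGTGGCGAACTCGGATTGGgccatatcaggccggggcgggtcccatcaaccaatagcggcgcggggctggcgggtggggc
The letters searched were CCAAT, 9 bases of any kind and CCACG, on either strand. The element lies 225 bases before the start in CALR, 66 in HSPA5, 151 in CANX and 80 in CRELD2, and at 194 and 89 bases in HSP90B1. It was found in 22 of 27305 RefSeq promoter windows of this length (0.0806%) and in 12 of 8299 windows of tested genes (0.145%). Over all genes tested 3.08% were called higher and 3.42% lower, with a median difference of 0.02. Of the 12 genes with the element, 4 were called higher in the CALR knockout (CANX, CRELD2, HSP90B1 and HSPA5) and 1 lower (CALR itself). Their median difference was 0.51. XBP1, ERO1B, FICD, EIF2A, SERP1, TMEM120A and TRIM5 were the other 7, with differences from -0.38 to 0.84 that did not pass. FICD passed the filter on low reads only with the CALR libraries counted. A match in these letters is a description and not a bound site. PDIA4, PDIA6 and CLGN held none in this window, and PDIA3 had no promoter window to search. The search used a single window for each gene, and other starts of a gene were not searched.

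HSPA5, which encodes the chaperone BiP and is the textbook readout of this response, was the clearest of these genes. Its levels were 8.25, 8.24 and 8.29 in the CALR knockout, against a lowest value of 7.06, a median of 7.37 and a highest value of 7.62 in the other 21 libraries. The groups did not overlap. HSPA5 was higher by 0.90 (SE 0.08, 1.86-fold, adjusted p = 2.09e-06) and was called against each of the 7 lines, from 0.72 against ATG7 to 1.13 against GABARAPL2. HSP90B1, which encodes the chaperone GRP94, measured 7.23, 7.20 and 7.37 in the CALR knockout and 6.14 to 7.00 with a median of 6.56 in the others, a difference of 0.70 (SE 0.11, adjusted p = 0.000773). It was called against all lines but CANX, where the difference was 0.52 (adjusted p = 0.0643). The disulfide isomerase genes PDIA6 and PDIA4 were higher by 0.60 and 0.85 (adjusted p = 0.00804 and 0.03), and CRELD2, an ER protein gene named after its values were seen, by 0.49 (adjusted p = 0.0404). The PDIA6 call was lost without CALR replicate 1 or 2, and the PDIA4 call without any 1 of the CALR libraries and without the GABARAP line.

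**Figure D2:**
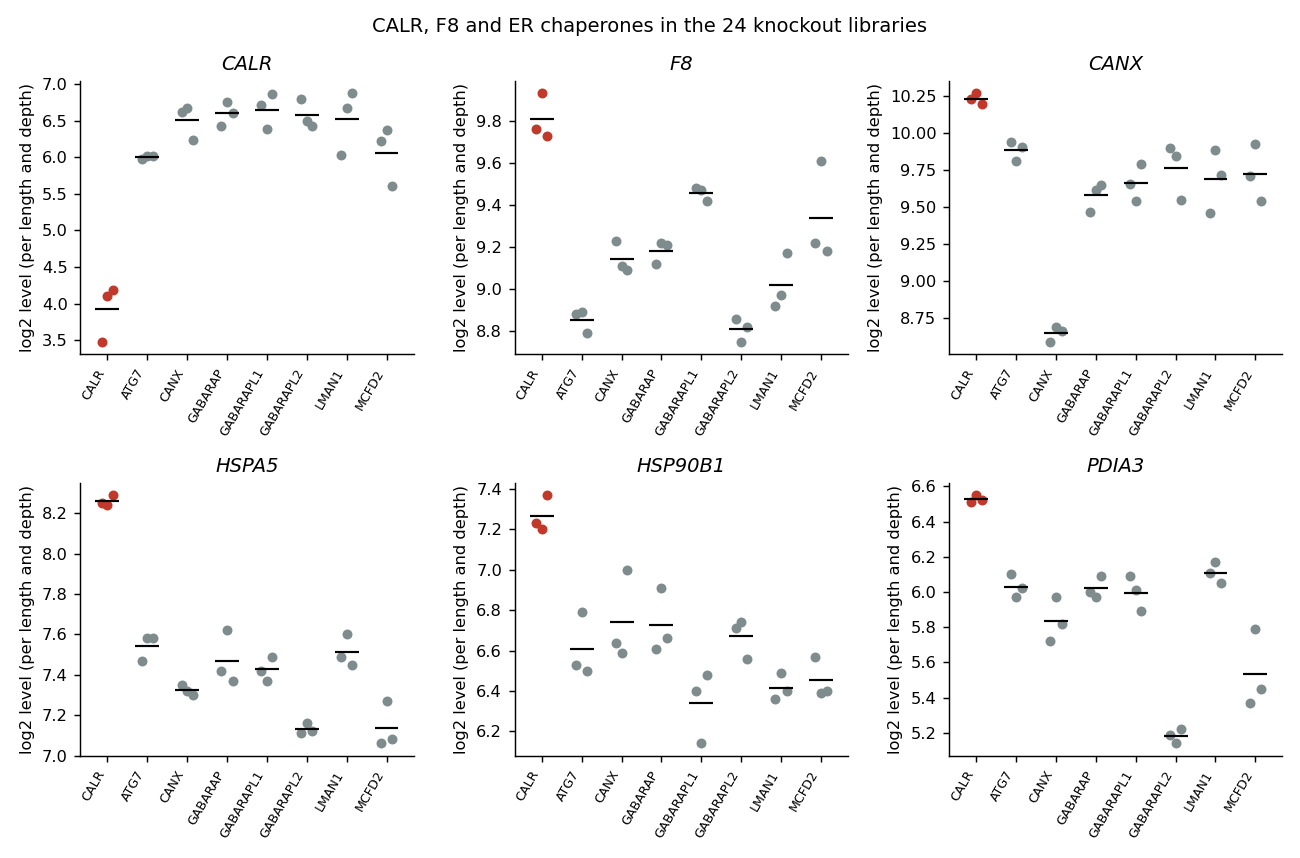
Levels of CALR, F8 and 4 chaperone or isomerase genes in the 24 knockout libraries (log2 scale per length and depth, 1 point a library, bar at the mean of a line, each panel with its own axis). The 3 CALR knockout libraries lie below the other 21 for CALR and above them for F8, CANX, HSPA5, HSP90B1 and PDIA3.

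These 5 genes were all that was called among 27 tested targets of the unfolded protein response. The list had 5 higher and 0 lower, beside 3.08% and 3.42% of all genes, and a median difference of 0.37 beside 0.02. Without CALR knockout replicate 1, 2 or 3 the count was 2, 2 and 3. The median was 0.57 against MCFD2 and 0.45 against GABARAP. It was 0.15 against LMAN1, 0.1 against GABARAPL1, 0.07 against CANX, and 0.06 against ATG7 and against GABARAPL2. Relative to the mean of the lines, the median member stood at 0.25, 0.15 and 0.24 in the CALR libraries. GABARAPL2 replicates 1 and 3 (0.16 and 0.17) and LMAN1 replicate 3 (0.16) lay in that range, and CANX replicate 3 above it (0.33). Members of the response outside the chaperones did not pass: XBP1 differed by 0.41, EDEM1 by 1.06, HERPUD1 by -0.46, SEL1L by -0.17 and DDIT3, the CHOP gene, by 0.61. EDEM1 passed the filter on low reads only with the CALR libraries counted. HYOU1 and DNAJB11, 2 further chaperone genes of the compartment, differed by -0.10 and -0.04. Among 24 tested genes of ER-associated degradation none was called. Among 33 genes of ER to Golgi transport 1 was higher (LMAN1) and 1 lower (KDELR1). Both lists are near the 3.08% higher and 3.42% lower of all genes. KDELR1 encodes a receptor that returns chaperones to the compartment, and its difference was -0.42 (adjusted p = 0.00322). KDELR1 lies on chromosome 19, whose genes were low as a whole in this line, and its call was lost after centring by chromosome.

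Of 25 tested genes for calcium pumps, channels and buffers of the compartment, 4 were called higher and CALR lower, beside 3.08% and 3.42% of all genes, with a median difference of 0.09 beside 0.02. The 4 were HSPA5, HSP90B1, the calcium-binding protein gene RCN1 (0.48, adjusted p = 0.0365) and ORAI2, which encodes a store-operated channel subunit (0.75, adjusted p = 0.021). Without CALR replicate 1 or 2 they numbered 2. The pump gene ATP2A2 differed by 0.27 and the sensor STIM1 by 0.20, and neither passed. In the list of MHC class I peptide loading, 2 of 10 tested genes were called higher, beside 3.08% of all genes. Most of the 10, HLA-C among them, lie on chromosome 6, with a median difference of 0.19 and 6.65% of its genes called higher. After centring by chromosome the list had 1 call. HLA-C measured 6.83, 7.00 and 7.01 in the CALR knockout and 5.16 to 6.82 in the other libraries, higher by 0.82 (adjusted p = 0.0037), though reads of HLA genes can be shared between the class I genes. B2M, the light chain, was higher by 0.36 (adjusted p = 0.0472), a call that was lost in most of the leave-outs, which leaves 1 called gene in the list. It was lost without any 1 library of the CALR, GABARAPL1 or GABARAPL2 knockouts and without ATG7 replicate 1 or 2, CANX replicate 1 or 2, GABARAP replicate 2 or 3, LMAN1 replicate 3 or MCFD2 replicate 2. It was also lost without the CANX, GABARAP, GABARAPL1, GABARAPL2 or MCFD2 line, and neither gene was called with all 30 libraries in the fit.

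Targets of p53 had the highest median of the pathway lists. Of 26 tested, 10 were called higher and 0 lower, with a median difference of 0.67 beside 0.02 over all genes, of which 3.08% were called higher. CDKN1A, the cell cycle inhibitor p21, measured 4.87, 5.06 and 4.95 in the CALR knockout, against a lowest value of 1.60, a median of 3.23 and a highest value of 4.39 in the others. Its difference of 1.78 (SE 0.20, 3.45-fold, adjusted p = 2.04e-05) was called against each line, from 0.92 against LMAN1 to 2.91 against ATG7. MDM2, which encodes the ligase that turns p53 over, measured 12.18, 11.82 and 12.12 in the CALR knockout, against 9.72 to 11.80 with a median of 10.74. It was higher by 1.29 (SE 0.09, adjusted p = 1.08e-07) and the CALR libraries did not overlap the others, although the difference from the LMAN1 knockout alone was 0.37 (adjusted p = 0.0806). GDF15, a secreted stress factor, was higher by 2.92 (adjusted p = 0.000747) on 234 and 182 reads, and ZMAT3 by 0.83 (adjusted p = 0.00133).

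The other 6 called p53 targets were SPATA18 (2.20, which passed the filter on low reads only with the CALR libraries counted), TP53INP1 (1.25), RRM2B (0.97), SESN1 (0.87), PMAIP1 (0.69) and DDB2 (0.63). The place of SPATA18 in the count of 10 is therefore a description. BAX, on chromosome 19, differed by -0.73 and did not pass (adjusted p = 0.404). Without CALR knockout replicate 1, 2 or 3 the count of 10 was 5, 6 and 6. The lines differed widely among themselves in this list. Relative to the mean of the 8 lines, its median member stood at 0.66, 0.62 and 0.60 in the CALR libraries and between -0.72 (ATG7 knockout replicate 1) and 0.48 (MCFD2 knockout replicate 1) in the other 21. Against single lines, 13 members were called higher than in ATG7 (beside 4.03% of all genes), 15 than in GABARAP (5.33%), 11 than in GABARAPL1 (2.56%) and 9 than in GABARAPL2 (4.02%). The counts were 5 against LMAN1 (2.91%), 4 against MCFD2 (1.41%) and 3 against CANX (1.52%).

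**Figure D3:**
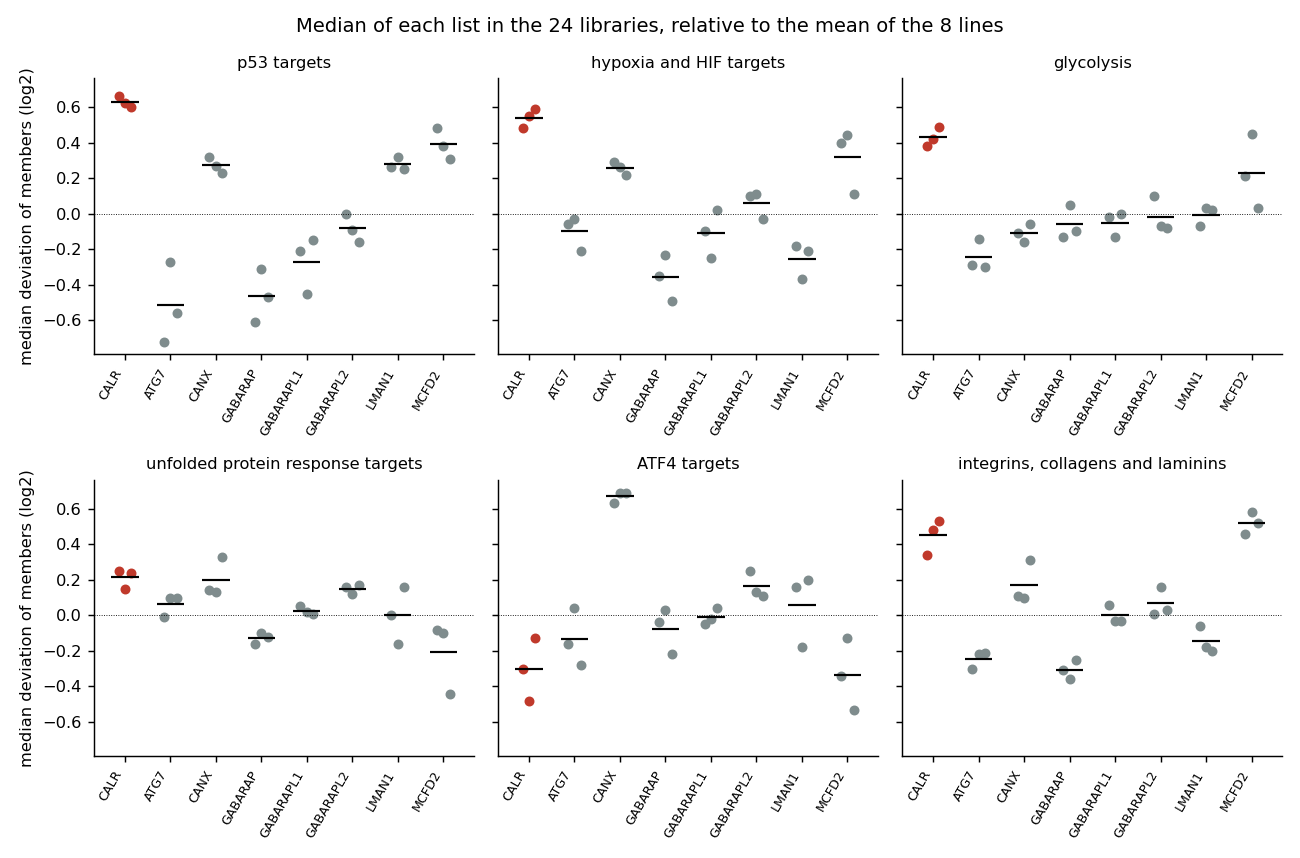
Median over the tested members of 6 gene lists of their deviation from the mean of the 8 lines (log2), 1 point a library, bar at the mean of the 3 points of a line. The 3 CALR libraries lie above the other 21 for p53 targets and for hypoxia and HIF targets, and share their range with the MCFD2 libraries for glycolysis, ATF4 targets and matrix genes. For ATF4 targets some libraries of the ATG7, GABARAP and LMAN1 knockouts lie in that range as well. For unfolded protein response targets CANX knockout replicate 3 lies highest.

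Several genes that HIF raises under low oxygen were higher too, as were several enzymes of glycolysis, and the lists share members such as PDK1 and SLC2A3. Of 28 tested hypoxia and HIF targets 8 were called higher and 0 lower (median difference 0.63), and of 21 glycolysis genes 10 were higher and 1 lower (median 0.46), beside 3.08% higher and 3.42% lower over all genes. PDK1, the kinase that restrains pyruvate dehydrogenase, measured 8.29, 7.50 and 8.00 in the CALR knockout and 4.11 to 7.34 with a median of 5.82 in the others. The groups did not overlap, and PDK1 was higher by 2.10 (SE 0.36, 4.29-fold, adjusted p = 0.00115). P4HA1, a collagen prolyl hydroxylase, was higher by 1.34 (adjusted p = 6.55e-05), the glucose transporter gene SLC2A3 by 1.55 (adjusted p = 0.0113) and MIR210HG, the host transcript of a hypoxia-induced miRNA, by 2.04. MIR210HG passed the filter on low reads only with the CALR libraries counted. Its difference is a description, and so is its place in the count of 8. NDRG1, BNIP3, BNIP3L and AK4 completed the called targets, at 1.23, 1.05, 0.93 and 0.72. VEGFA and ADM, well-known targets of HIF, did not pass, at -0.16 and -0.43, nor did HIF1A itself, at -0.06.

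Of the glycolytic enzymes, ENO2 was higher by 1.50 (adjusted p = 0.000301), with 6.49, 6.70 and 6.34 in the CALR knockout and 3.94 to 6.52 in the others, where 1 MCFD2 library reached into its range. LDHA was higher by 0.73 (adjusted p = 0.00224), PFKP by 0.82, ALDOA by 0.65, PKM by 0.61, PGK1 by 0.47, ENO1 by 0.46 and TPI1 by 0.44. GPI, the 1 called lower (-0.52), lies on chromosome 19, and its call was lost after centring by chromosome and without any 1 of the CALR libraries. GAPDH was 0.46 above the others but did not pass (adjusted p = 0.312). Without CALR knockout replicate 1, 2 or 3 the HIF count was 4, 4 and 4 and the glycolysis count 7, 5 and 5.

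The median HIF target stood at 0.48, 0.55 and 0.59 in the CALR libraries relative to the mean of the 8 lines, at 0.40, 0.44 and 0.11 in the MCFD2 libraries, and at 0.29 or below in the other 18. Directly between the CALR and MCFD2 lines, none of 28 HIF targets and 1 of 21 glycolysis genes was called higher, where 1.41% of all genes were, so that the absence of a call there is near the share over all genes. From 2 HIF targets (against CANX, beside 1.52% of all genes) to 10 (against GABARAP, beside 5.33%) were called higher against the other 6 lines.

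**Figure D4:**
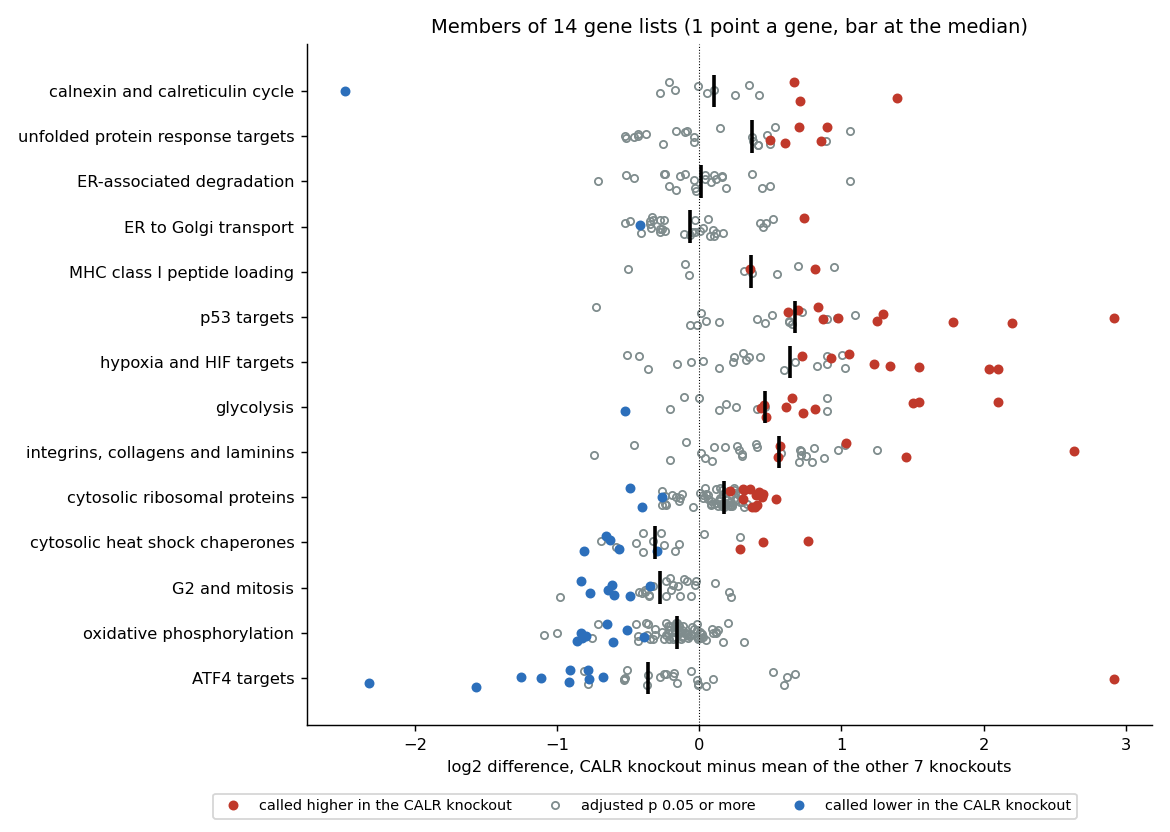
Log2 difference between the CALR knockout and the mean of the other 7 knockouts for each tested member of 14 gene lists. Filled points passed an adjusted p of 0.05, open points did not, and the bar is the median of the list. Medians run from -0.36 for ATF4 targets to 0.67 for p53 targets.

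Several genes of amino acid supply that ATF4 controls were lower in the CALR knockout. ATF4 is the transcription factor of the integrated stress response, which raises amino acid synthesis, transport and tRNA charging. Of 35 tested targets 9 were called lower, beside 3.42% of all genes, and 1 higher (GDF15, which is also a p53 target), with a median difference of -0.36. ASNS, asparagine synthetase, measured 6.92, 6.84 and 7.25 in the CALR knockout, against a lowest value of 7.36, a median of 8.62 and a highest value of 10.24 in the others. It was lower by 1.58 on the log2 scale (log2 difference -1.58, SE 0.19, adjusted p = 5.27e-05), and called against each line, most against CANX (-3.03). CHAC1, which degrades glutathione, had 21 reads in the CALR knockout and 532 in the others and a difference of -2.32 (adjusted p = 6.49e-05), with 2 of the other libraries inside the CALR range.

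ATF4 transcripts themselves measured 8.57, 8.86 and 8.66 in the CALR knockout and 8.52 to 10.22 with a median of 9.50 in the others, 3 of which lay below the highest CALR library, a difference of -0.78 (adjusted p = 0.000405). The other called targets were the cystine transporter SLC7A11 (-1.26), CEBPG (-1.12), the glycyl-tRNA synthetase GARS (-0.92), the tRNA exporter XPOT (-0.91), the serine synthesis enzyme PSAT1 (-0.79) and the glutamine transporter SLC1A5 (-0.68). The tRNA synthetase genes MARS and CARS, which are outside the list, were lower by 1.21 and 1.08 on the log2 scale and came among the 12 largest negative differences. CEBPG and SLC1A5 lie on chromosome 19, whose genes were low as a whole in this line. Of the 26 targets off chromosomes 14, 19, 20 and 21, 7 were called lower, beside 163 of all 9976 genes off them. After centring each chromosome in each library the count of 9 was 7. Without CALR knockout replicate 1, 2 or 3 it was 5, 5 and 7.

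The reference lines were spread out in this list, and the CALR knockout was not apart from all of them. The median target stood at -0.30, -0.48 and -0.13 in the CALR libraries relative to the mean of the 8 lines, at -0.34, -0.13 and -0.53 in the MCFD2 libraries, and at up to 0.69 in the CANX libraries. ATG7 replicates 1 and 3 (-0.16 and -0.28), GABARAP replicate 3 (-0.22) and LMAN1 replicate 2 (-0.18) lay in the CALR range too. Against the CANX line alone 17 targets were called lower (beside 1.48% of all genes), and against the MCFD2 line 1 (0.624%). ATF4 differed from the MCFD2 knockout by 0.02 (adjusted p = 0.978). Without the CANX line 7 targets were called lower, and ASNS and ATF4 were lower by 1.33 and 0.69 on the log2 scale (log2 differences -1.33 and -0.69, adjusted p = 0.000665 and 0.0019).

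Basement membrane and matrix genes lay above the other lines on average. Of 32 tested integrin, collagen and laminin genes 5 were called higher and 0 lower, beside 3.08% and 3.42% of all genes, with a median difference of 0.56. They were NID1 (1.03, adjusted p = 0.00329), LAMB2 (1.45), COL6A1 (0.57), COL4A2 (0.55) and SPARC (2.64, on 76 and 105 reads). The count was 2, 1 and 1 without CALR knockout replicate 1, 2 and 3. It was 2, 3 and 3 without GABARAPL1 replicate 1, 2 and 3, and 2 without any 1 of the GABARAPL2 libraries. It was also 2 without the GABARAPL2 line and 3 without the GABARAP or the GABARAPL1 line. Against the MCFD2 line the median was -0.07 and none of the 32 was called, which is near the 1.41% of all genes called higher there.

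The genes with the largest differences, taken among those whose CALR libraries did not overlap the other 21, included S100A16, which encodes a calcium-binding S100 protein. It measured 0.85, 1.07 and 1.10 in the CALR knockout and -6.46 to -0.13 with a median of -2.45 in the others (149 and 63 reads). The filter on low reads asks for 3 libraries, and S100A16 reached it in the 3 CALR libraries and in 0 of the others, so it had to differ, and its difference of 3.83 is a description. The same holds for the homeobox gene UNCX (2.57) and for bP-21264C1.1 (2.06), a transcript of no known role, each of which 1 other library reached. MXRA8, a membrane protein linked to matrix remodelling, stood at 9.24, 9.29 and 8.80 in the CALR knockout and 2.57 to 8.03 in the others, higher by 3.19 (adjusted p = 3.73e-05). EPS8L2, an actin-binding protein gene, was higher by 2.67 (adjusted p = 0.000653), IL32 by 2.38 (adjusted p = 0.000451) and CXXC4, an inhibitor of WNT signalling, by 2.11 (adjusted p = 0.00108). GDF15 and PDK1 came from the same ranking, as did RP3-326I13.1 (2.05), a long noncoding RNA. The HIST2H4A call was lost without any 1 of the CALR libraries and without the GABARAPL1 or GABARAPL2 line. HIST2H4B (2.21) and HIST2H4A (1.83) are near-identical copies of a histone H4 gene, and reads could be split between them.

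Other genes called higher against every line lay outside the lists and the ranking, and were chosen after their values were seen. MALAT1, a nuclear long noncoding RNA, measured 14.37, 14.48 and 13.86 in the CALR knockout, against 12.51 to 13.74 in the others, higher by 1.19 (adjusted p = 1.07e-06). The sulfotransferase gene SULT1A1 was higher by 1.73 (adjusted p = 8.96e-05) YPEL3 by 1.67 (adjusted p = 1.17e-05) and SPEN, which encodes a transcriptional repressor, by 0.69 (adjusted p = 0.000123). SULT1A1 has close relatives in the genome with which reads could be shared.

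Below the others, after CALR and ASNS, came HSPBP1 (-1.53), a co-factor of HSP70, CPNE1 (-1.35), the RNA helicase gene DDX39A (-1.31) and KLF8 (-1.22). HSPBP1 measured 3.21, 3.60 and 4.35 in the CALR knockout, against 4.42 to 6.01 with a median of 5.29 in the others (SE 0.25, adjusted p = 0.000872). SNX5 (-1.05), the lysosomal protease gene LGMN (-1.04) and the calmodulin gene CALM3 (-1.03) followed MARS and CARS. Of these, CALR, HSPBP1, DDX39A and CALM3 lie on chromosome 19, CPNE1 and SNX5 on chromosome 20 and LGMN on chromosome 14.

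That clustering held over the whole set of lower genes. Of the 395 genes called lower, 232 (58.7%) lay on chromosomes 14, 19, 20 and 21, which hold 13.6% of the genes tested. On chromosome 20 the median difference was -0.44, with 67 genes called lower and 1 higher of 284, and its median was -0.43, -0.43 and -0.40 in the 3 CALR libraries and 0.01 to 0.19 in the other 7 lines. On chromosome 19 the median was -0.32, with 118 lower and 7 higher of 766, against -0.13 to 0.18 in the other lines.

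Chromosomes 14 and 21 had medians of -0.25 and -0.17, and there other lines reached similar values (ATG7 at -0.23 and GABARAPL2 at -0.19 on chromosome 14, CANX at -0.34 on chromosome 21). Chromosome 6 had a median of 0.19, with 38 genes called higher and 6 lower of 571. Other lines had shifts of this kind on other chromosomes, such as -0.60 on chromosome 18 in the GABARAP knockout. In runs of 25 neighbouring tested genes the lowest median was -0.82, on chromosome 20 from 5937235 to 18497243. All 170 runs at or below -0.5 lay on chromosomes 20 (113) and 19 (57). With each library centred on its median over each chromosome, 488 genes were called, 265 higher and 223 lower. Copy number was not measured, and its part in these differences was not tested.

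**Figure D5:**
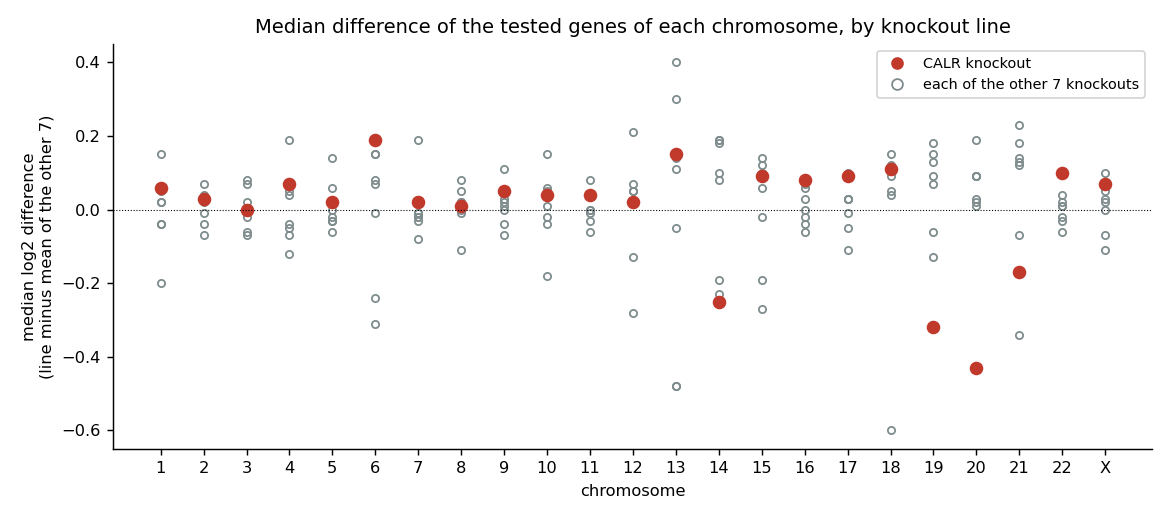
Median log2 difference of the tested genes of each chromosome, for the CALR knockout (filled) and for each of the other 7 knockouts (open), each line against the mean of the remaining 7. The CALR knockout is lowest of the 8 lines on chromosomes 14, 19 and 20, on chromosome 14 by little (-0.25, with the ATG7 knockout at -0.23).

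Several lists that were low as a group drew most of their called members from these chromosomes. Over all genes 3.42% were called lower, and 163 of the 9976 off these chromosomes. Of 31 proteasome subunit genes 5 were called lower, but 1 of the 23 that lie elsewhere (PSMD14, -0.31). The chromosome 20 gene PSMA7, at -0.56 (adjusted p = 0.000123), was the most certain of them. Of 77 oxidative phosphorylation genes 8 were lower, but 1 of the 62 elsewhere (NDUFS6, -0.39). Of 32 DNA replication genes 3 were lower (E2F1 and PCNA on chromosome 20, UHRF1 on chromosome 19) and none of the 25 elsewhere. Of 30 genes of G2 and mitosis 7 were lower and none higher, 4 of them on chromosome 20 (TPX2, AURKA, CDC25B and UBE2C). Of the 26 elsewhere 3 were lower.

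The other 3 mitotic genes were CKS2 (-0.62), CDC20 (-0.49) and AURKB (-0.35), and MKI67, on chromosome 10, differed by -0.23 (adjusted p = 0.188). Over the 26 mitotic genes off the 4 chromosomes the median was -0.22, beside 0.06 for all 9976 tested genes off them. Without CALR knockout replicate 1, 2 or 3 the mitosis count was 2, 2 and 3, the replication count 0, 0 and 0, the proteasome count 2, 3 and 4 and the oxidative phosphorylation count 5, 3 and 6. The oxidative phosphorylation count was 13 without the MCFD2 line, and the replication count was 1 without the GABARAPL2 line.

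Cytosolic heat shock genes moved in both directions, with 3 of 20 called higher and 5 lower (median -0.31), beside 3.08% and 3.42% of all genes. Of the 17 off chromosomes 14, 19, 20 and 21, 3 were higher and 2 lower. HSPB1, a small heat shock protein gene, was higher by 0.77 (adjusted p = 0.00141), HSPA4L by 0.45 and HSP90AB1 by 0.29, and AHSA1, HSPH1, CHORDC1, DNAJB1 and HSP90AA1 were lower by 0.56, 0.66, 0.81, 0.63 and 0.30 on the log2 scale (log2 differences -0.56, -0.66, -0.81, -0.63 and -0.30). AHSA1 and HSP90AA1 lie on chromosome 14 and DNAJB1 on chromosome 19. The counts over all 20 genes were 1 higher and 2, 2 and 1 lower without CALR knockout replicate 1, 2 and 3. The lower count was 8 without LMAN1 knockout replicate 2 and 3 without the GABARAP or the GABARAPL1 line. Of 76 genes for cytosolic ribosomal proteins 13 were called higher and 3 lower, beside 3.08% and 3.42% of all genes. The 3 lower ones were all on chromosome 19, among them RPL28 (-0.49) and RPL18 (-0.26). RPS10 was higher by 0.54 (adjusted p = 7.55e-05) and RPL32 by 0.39 (adjusted p = 0.000728), and ribosomal protein genes have many processed copies with which reads could be shared. The higher count was 6, 8 and 7 without CALR knockout replicate 1, 2 and 3, 20 without the LMAN1 line, 26 with median centring and 21 with quantile normalisation. The 3 lower calls were all lost without any 1 of the CALR libraries, and numbered 6 without LMAN1 replicate 2 or MCFD2 replicate 3, 7 without the MCFD2 line and 1 without the ATG7, GABARAP, GABARAPL1 or GABARAPL2 line or GABARAPL2 replicate 1.

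Among 33 autophagy genes 2 were called higher and none lower, beside 3.08% and 3.42% of all genes. They were GABARAPL1 and the receptor gene OPTN (1.50, adjusted p = 0.000963). OPTN measured 8.64, 8.87 and 8.82 in the CALR knockout and 5.14 to 9.28 in the others, where 3 libraries lay above the lowest CALR library and MCFD2 replicate 2 was highest. Beside the same shares of all genes, none of 10 calcineurin and NFAT genes was called. Of 22 cholesterol synthesis genes only PMVK was called (0.56, adjusted p = 0.0407). That call was lost without any 1 of the CALR or the GABARAPL2 libraries and without GABARAPL1 replicate 1, the GABARAP line or the GABARAPL1 line, and a further gene of the list was called without GABARAP replicate 2.

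The labelled cell type was checked by its markers. Of 18 listed HEK293 markers 14 passed the filter on low reads. Beside 3.08% of all genes, KRT8, KRT18 and CDH2 were called higher in the CALR knockout (1.04, 0.96 and 0.61). Without any 1 CALR library 1 call remained. Of the markers of other cell types 4 of 11 for neurons, 1 of 9 for fibroblasts, 4 of 10 for blood cells and 0 of 7 for endothelium passed, as did 0 of 9 for kidney tubule. STMN2 (0 reads in the CALR knockout and 193 in the others, called lower) and CD4 (3 and 154 reads, called lower) were the marker genes of another cell type that were called. The STMN2 call was lost without CALR replicate 3, and the CD4 call without CALR replicate 1 or 2 or without the CANX or GABARAP line. The part of any such cells in the results was not tested.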

How the data were processed

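Libraries for 3′ RNA-seq were made from column-purified RNA of cell pellets, per the labels' protocols. TopHat2, Bowtie, cutadapt and FastQC, with hg38 as the build, appear in the submitters' processing notes without versions. How reads were counted and annotated is not given in the sources used here, nor is the normalisation. The deposited table holds log2 values of 16975 genes in 30 samples, and the authors' construction was read from the values themselves: whole reads plus 0.5, divided by a gene length and a library size. Reads were recovered for 16972 genes (99.996% of the checked values whole within the rounding of the deposited values), and depths are sums of these. The design had named a count model if the table held counts, which it does not.

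Genes worth 10 reads at the median depth (865753) in 3 of the 24 knockout libraries, with 15 reads in all, were tested with limma 3.58.1 (R 4.3.3; trend, robust, two-sided, Benjamini-Hochberg over 11542 genes), with 1 coefficient per line and a contrast of CALR minus the mean of the other 7. Adjusted p-values below 0.05 are called; counting error limits genes of few reads. The fit was tested on simulated data. Libraries were grouped by title. Replicate numbers did not pair libraries (same-number correlations of deviations -0.2 to 0.25). Replicates of a line correlated at 0.934 to 0.986 and differed beyond sampling noise.

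The comparison, its gene lists and its rules were chosen with earlier results of these data known. Named genes are the targeted genes and F8, the 12 largest differences in each direction among called genes without overlap and with 20 reads at the median depth, up to 4 called members of each list in each direction, and genes that bear on a list's name; further list members were named after their values were seen. Lists are described by counts and medians, with no test. A few genes that the rule gave are not reported here. Coordinates are from GENCODE 29 and promoters from RefSeq (GRCh38.p14). Alternatives were other scalings, weights, offsets, filters, samples and lines.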

Additional observations from a re-analysis of the deposited data

How the results depend on the processing

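The CALR and F8 differences kept their direction in every alternative and their call in all but 1: with line means the CALR difference was -2.49 (adjusted p = 0.0657) and the F8 difference 0.69 (adjusted p = 0.999). The 750 calls became 0 with line means, 333 with all 30 libraries in the fit, 2263 with voom weights (1316 higher, 947 lower), 488 with chromosome centring and 1234 without the CANX and MCFD2 lines, the last 2 settings chosen after seeing the data. Leaving out 1 library gave 245 to 891. The 19 genes called against each line became 34 with median centring, 87 with voom weights, 40 with an offset of 2 reads and 31 with a filter at 30 reads. They were 7 with all 30 libraries, 4 with libraries of at least 500000 reads, 6 with chromosome centring, 12 without the GABARAPL2 line, 57 without the MCFD2 line and 112 without both CANX and MCFD2 lines, and 4 to 27 without 1 library (27 without LMAN1 knockout replicate 2). With the replicate number as a block, 728 genes were called, 13 of them against each line, and the samples share only a number.

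Of the 95 called genes that the naming rule gave, 52 kept the call whichever CALR library was left out, 93 with quantile normalisation, 68 with all 30 libraries, 65 with chromosome centring and 0 with line means. Chromosome centring reversed RPL18 (0.07) and HIF1A (0.21), neither then called. Median centring shifted the median of all genes to 0.066. The causes of these changes were not tested. Depth limits genes of few reads: at 0 reads in a group the fitted difference depends on the offset, so none is given for STMN2.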
